A study of Homo sapiens with 9 samples.

Results

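The comparison set 3 libraries of Jurkat cells labelled EZH2-KO1 (KO1) against 3 libraries of unedited Jurkat cells labelled EZH2-WT (WT). Jurkat is an established human line from a T-cell acute lymphoblastic leukaemia, and EZH2-KO1 is a single line edited at EZH2 with CRISPR/Cas9. These 6 libraries are all those labelled WT or KO1 among the 9 of the series, and the other 3 come from a line edited the same way and labelled KO2. All cells were grown in RPMI medium with serum and antibiotics, with no treatment named, and polyadenylated RNA was sequenced. Every gene row with a numeric value was used, which was 26190 of the 26228 rows of the table. Values are FPKM, a measure of transcript abundance corrected for gene length and for the size of the library, and were given per library in the order of replicates 1, 2 and 3.

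EZH2 is the catalytic subunit of Polycomb repressive complex 2 (PRC2), which methylates lysine 27 of histone H3 and thereby holds developmental and lineage genes silent. The related enzyme EZH1 can take its place in the complex. In the T lineage the complex acts as a brake on gene programs of other lineages, and its core genes are recurrently lost in T-cell acute lymphoblastic leukaemia. MYC and MYCN drive ribosome production in the same disease.

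Sums of FPKM ran from 432939 to 439031 in WT, 417737 to 421229 in KO1 and 430433 to 439704 in KO2, so the KO1 libraries lay lowest. Values were not rescaled for the main test. Genes that reached 1 FPKM numbered 11028 to 11136 in the WT libraries and 11366 to 11415 in KO1. Read depth is unknown, so no counting interval is given. Of the 26190 rows, 8008 were at 0 in all libraries, 28 had names turned into dates, and 11737 reached 1 FPKM in at least 3 libraries and were tested. Changes are log2 fold changes of FPKM + 1, given with the standard error of the limma fit, and this scale understates changes of weakly expressed genes. A gene was said to have risen or fallen where limma's p-value, adjusted by Benjamini and Hochberg over all 11737 genes, was under 0.05. The edited line is a single line, and the labels do not say that replicates are separate cultures, so p-values measure only the spread between these libraries, which may be technical. In RNA from whole cultures, fewer cells expressing a gene and less of its RNA per cell cannot be told apart.

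EZH2 transcript stood at 74.4, 77.6 and 79.5 FPKM in the WT libraries and at 108, 107 and 103 in those labelled KO1, so it was higher in KO1 with no overlap. An edited gene can still be transcribed, so the summed level of its transcripts is no check on the edit, and all directions rest on the labels. EZH1 fell from 10.6, 12.3 and 12.4 to 7.28, 6.996 and 7.19 FPKM. All 11 T-lymphocyte markers were present in both groups, with a summed level of 1599 to 1710 FPKM in WT and 1374 to 1518 in KO1. Of these 11 genes 3 rose, namely CD2, CD7 and CD3G, and 8 fell. CD5, an inhibitory surface receptor of T cells, fell most, from 32.04, 35.99 and 36.5 to 15.1, 14.2 and 14.2 FPKM.

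Markers of other cell types stood low in both groups, apart from single genes. Summed levels went from 0.0357 to 0.0933 FPKM in WT to 1.04 to 1.74 in KO1 over 9 myeloid markers and from 0.462 to 0.554 to 1.49 to 1.88 over 6 stromal markers. Over 9 erythroid and megakaryocyte markers they were 0.329 to 0.426 in WT and 0.172 to 1.88 in KO1, and over 6 epithelial markers 0 to 0.150 and 0.0634 to 0.558. The markers LYZ, CSF1R, COL3A1, DCN, KRT19 and PAX5 were listed at 0 in all 6 libraries. Members at 0 throughout numbered 4 of the 9 myeloid, 3 of the 6 stromal, 1 of the 6 epithelial and 1 of the 7 B-cell markers. The only myeloid and stromal members expressed enough to be tested, S100A9 and COL1A1, both rose, with log2 fold changes of 0.90 and 0.80. Of 7 B-cell markers the summed level was 26.7 to 31.4 FPKM in WT and 49.997 to 59.5 in KO1, nearly all of it CD79A, which encodes a B-cell receptor chain. The natural killer list of 6 genes summed to 2.03 to 2.54 FPKM in WT and 21.0 to 23.6 in KO1, through NCAM1 and NKG7, while KLRF1 was at 0.

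In the comparison of KO1 with WT, 7923 of the 11737 tested genes passed (67.5%), of which 4177 rose (35.6%) and 3746 fell (31.9%). These shares are the background against which each gene family below is read. A change of at least 2-fold on the log2(FPKM + 1) scale was seen for 652 genes that rose (5.56%) and 334 that fell (2.85%). At 4-fold or more the counts were 133 and 55, and at 8-fold or more 23 and 12. The KO1 and WT libraries did not overlap for 8050 genes (68.6%). When the test asked for a change above 1.5-fold, 1405 genes passed, 876 higher and 529 lower.

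Large rises were concentrated among weakly expressed genes. Below a mean of 2 FPKM over both groups, 217 of 1339 genes rose and 39 fell by 2-fold or more. At 20 to 100 FPKM the counts were 47 and 82 of 3493, and at 100 FPKM or more 7 and 14 of 720. The share of genes that passed went from 63.0% in the lowest of 5 level classes to 73.6% in the highest. The median size of the change went the other way, from 0.45 to 0.24 on the log2 scale. A weakly expressed gene was tested only if 3 libraries reached 1 FPKM, so many could enter through the group where they were high. That filter favours large changes in the lowest class, in the counts and the median alike, and its part was not tested. The 100 most abundant genes of WT took 25.9% to 26.3% of the summed FPKM in WT and 22.7% to 23.3% in KO1.

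**Figure D1:**
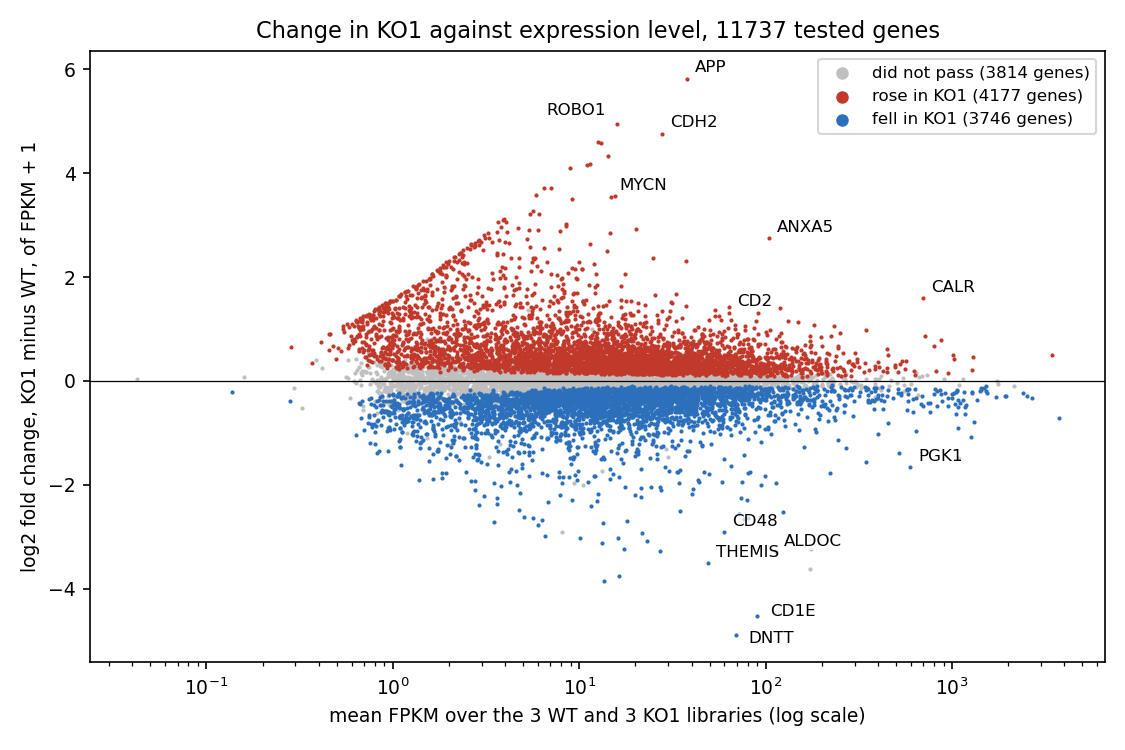
Each point is 1 of the 11737 tested genes, with its mean FPKM over the 3 WT and 3 KO1 libraries on a log axis and its log2 fold change of FPKM + 1 on the vertical axis; red genes rose (4177), blue genes fell (3746) and grey genes did not pass. Rises past 2-fold sit mostly below 20 FPKM, while DNTT and CD1E, the largest falls, were above 100 FPKM in every WT library.

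Genes on chromosome X fell more often than those on the autosomes. Of 383 tested genes on chromosome X, 52 rose (13.6%) and 261 fell (68.1%), against 4090 rises and 3418 falls among 11175 autosomal genes. The median change was -0.39 on X and 0.03 on the autosomes, and over the other chromosomes taken singly it lay between -0.06 and 0.14. Measured library by library against WT, the X median was -0.38, -0.38 and -0.40 in the KO1 libraries and -0.11, -0.12 and -0.14 in those of KO2. All KO1 libraries thus showed the lower X level. Chromosome order came from RefSeq, and 99.3% of the genes averaging at least 5 FPKM could be placed.

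A stretch of chromosome 9 also stood apart when running medians over 31 neighbouring genes were taken. From MEGF9 to C9orf114, 59 tested genes had a median of -0.44 in KO1, with 41 falls and 5 rises, and a median of 0.03 in KO2. The KO1 libraries gave -0.43, -0.42 and -0.46 and those of KO2 gave 0.06, 0.03 and 0.04. This stretch was picked because its values were low, so these figures are a description without a test. It holds the PRC2 gene PHF19, and among its 5 rises is the chaperone gene HSPA5. The part that gene position played in the family counts below was not tested. Counts without X-linked members are given for several of the families that hold them.

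**Figure D2:**
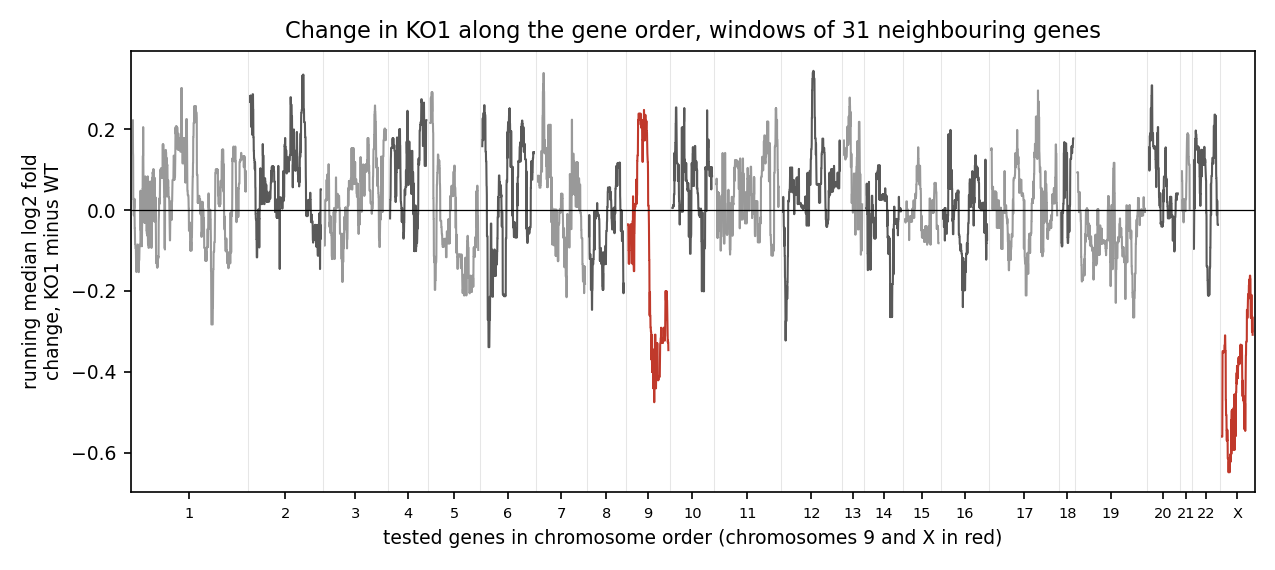
Running median of the log2 fold change (KO1 minus WT) over windows of 31 neighbouring genes that averaged at least 5 FPKM, in chromosome order; chromosomes 9 and X are red. Every window on X lay below 0, between -0.65 and -0.16, and the later part of chromosome 9 reached -0.48.

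The 15 largest rises were genes that Jurkat cells of the WT libraries hardly expressed, and several encode adhesion and guidance molecules best known from the nervous system. APP, the amyloid precursor protein, was at 0.344, 0.234 and 0.453 FPKM in WT and at 72.4, 74.3 and 77.9 in KO1. ROBO1, a receptor for the guidance cue SLIT, was at 0, 0 and 0.186 and 30.97, 32.1 and 32.1 FPKM. CDH2, which encodes the adhesion protein N-cadherin, was at 1.16, 0.797 and 1.17 and 50.8, 54.1 and 58.1 FPKM. In each of these 3 genes every KO1 library lay far above every WT library. The log2 fold changes were 5.82 ± 0.07, 4.95 ± 0.07 and 4.76 ± 0.08 (limma adjusted p = 2.59e-12, 2.4e-11 and 3.15e-11).

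The guidance receptor EPHA3 rose from 0.235, 0.303 and 0.377 to 21.1, 23.8 and 22.7 FPKM and the neural adhesion molecule NCAM1 from 0.0482, 0.0422 and 0.183 to 18.03, 17.3 and 17.6. Transcriptional regulators were a further set among the leading rises. The nuclear receptor corepressor NRIP1 went from 0.0189, 0.0441 and 0.177 to 22.9, 25.1 and 27.2 FPKM and the corepressor CTBP2 from 0.217, 0.303 and 0.329 to 21.2, 21.7 and 22.4. MYCN, an oncogene of the MYC family, went from 1.75, 1.63 and 1.13 to 29.2, 28.9 and 26.2 FPKM. Lack of overlap between the groups was a condition for choosing these genes.

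CCND2, a D-type cyclin that drives entry into S phase, rose from 0.396, 0.359 and 0.592 to 27.1, 27.3 and 29.5 FPKM. The amino acid transporter SLC7A8 rose from 0.0246, 0.140 and 0.241 to 26.6, 26.1 and 25.2 and the RNA-binding protein IGF2BP2 from 0.0883, 0.0256 and 0.328 to 13.9, 13.7 and 14.4. The remaining leading rises were PARM1, RASSF8, the kinase TNIK and the fatty acid transporter SLC27A2, with log2 fold changes of 3.50 to 3.71. Passing was also a condition for the 15, and each had a limma adjusted p of 3.57e-09 or less.

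**Figure D3:**
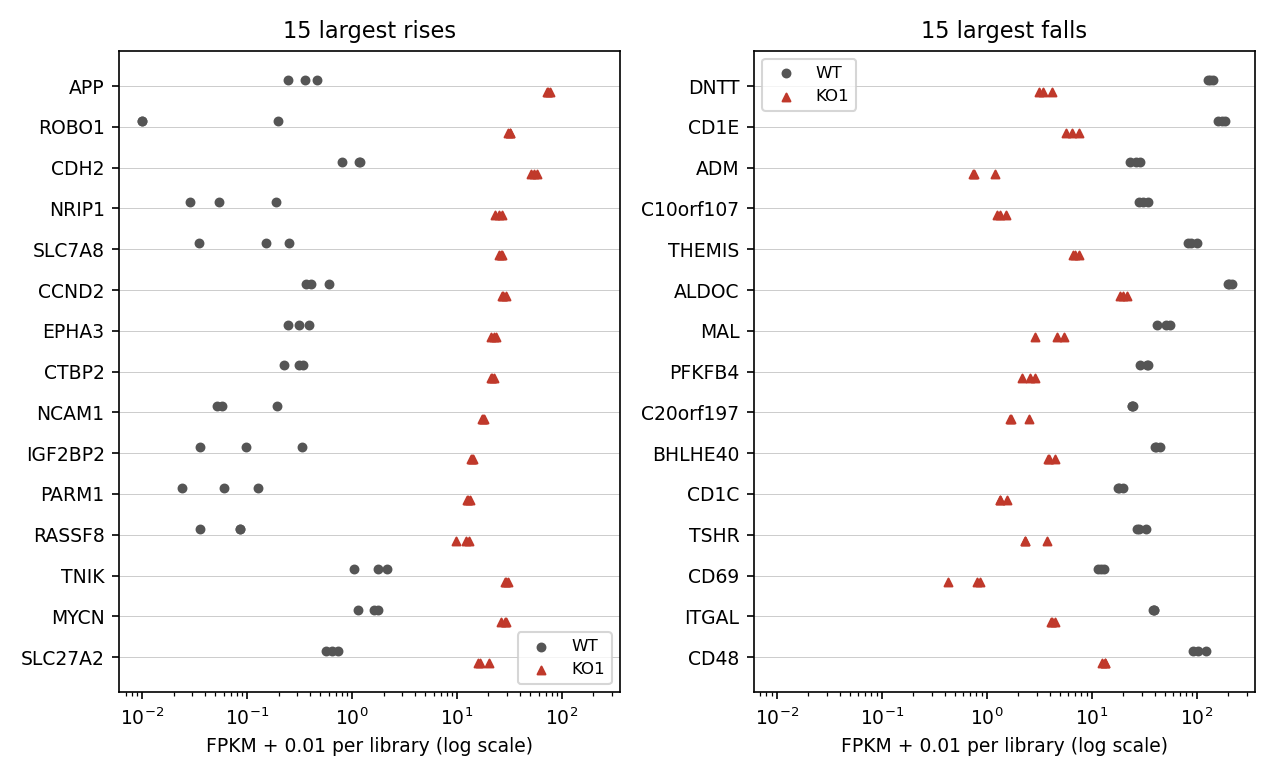
FPKM + 0.01 per library on a log axis for the 15 largest rises (left) and the 15 largest falls (right), with WT libraries as grey circles and KO1 libraries as red triangles. The groups are separate for every gene, which the choice of these genes required, and all 15 rises start from WT means below 2 FPKM.

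Among abundant genes (mean of 50 FPKM or more) the largest rise was that of ANXA5, which encodes a phospholipid-binding annexin, from 29.2, 24.9 and 24.4 to 172, 175 and 198 FPKM. The serine protease gene CTSG, known from granulocytes, rose from 60.9, 63.6 and 69.02 to 187, 174 and 159.9. The MHC class I gene HLA-B rose from 28.6, 29.5 and 29.6 to 80.6, 80.5 and 70.6 and the translation factor EIF5 from 34.7, 34.1 and 33.8 to 90.5, 91.7 and 95.95. CTSG was expressed in WT as well, and the summed myeloid marker level given above stayed under 2 FPKM in every KO1 library. CD2, a T-cell adhesion receptor, rose from 35.8, 35.01 and 36.6 to 87.2, 90.1 and 94.4 FPKM, and CALR, an ER chaperone, is described with its family.

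A set of genes went from silent to expressed. Apart from small RNA genes, 106 of 26162 genes were under 0.1 FPKM in all 3 WT libraries and at 1 FPKM or more in all 3 KO1 libraries (0.405%), whereas 5 did the reverse (0.0191%). Of the 106, 104 are protein coding, and 13 reached a mean of 5 FPKM in KO1. In KO2, 41 of the 106 had a mean of 1 FPKM or more and 15 a mean under 0.1. The genes named from here to the end of the paragraph were picked from these by level after their values were seen. RASSF8 was at 0.0260, 0.0758 and 0.0760 FPKM in WT and 9.81, 12.1 and 13.2 in KO1, and the transcription factor DACH1 at 0.0157, 0 and 0.0484 and 7.06, 8.37 and 8.29. CHRDL1, which encodes an inhibitor of bone morphogenetic proteins, was listed at 0 in all WT libraries and stood at 7.47, 7.02 and 7.603 FPKM in KO1. MECOM, a zinc finger oncogene of blood stem cells, was at 0.0130, 0.0456 and 0.0163 and 5.695, 5.24 and 6.09. YAP1, the transcriptional effector of the Hippo pathway, was at 0, 0.0846 and 0 FPKM in WT and 2.15, 2.73 and 2.95 in KO1. TWIST1, a regulator of mesenchymal development, was at 0.0945, 0 and 0.0544 and 3.08, 3.63 and 3.01.

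Genes of the reverse pattern were FGFBP2, MAGEA12, GLYCTK-AS1, HIST1H2BH and CSMD1, with WT means between 1.21 and 2.76 FPKM. MAGEA12 is X-linked, and near-identical MAGEA copies may share its reads.

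**Figure D4:**
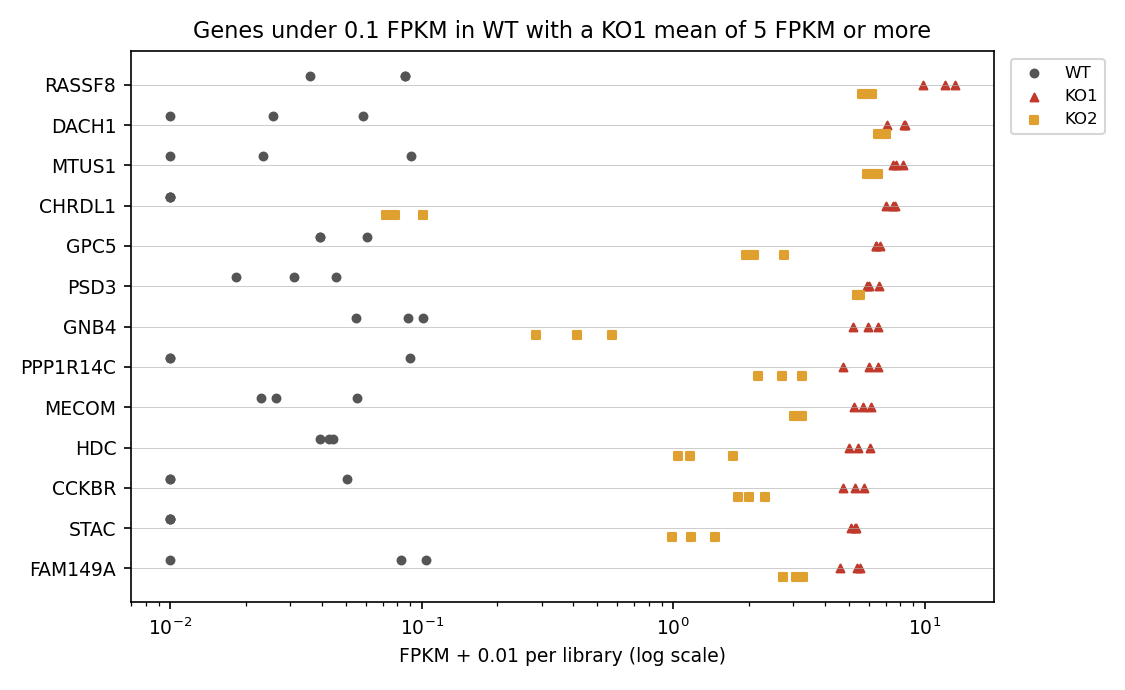
FPKM + 0.01 per library on a log axis for the 13 genes under 0.1 FPKM in every WT library with a KO1 mean of 5 FPKM or more; circles are WT, triangles KO1 and squares KO2. In KO1 all means are 5 FPKM or more, and in KO2 the same genes range from a mean of 0.0739 FPKM (CHRDL1) to 6.84 (DACH1).

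The largest falls were led by genes of immature cortical thymocytes, the developmental stage that Jurkat cells resemble in part. DNTT, the template-independent DNA polymerase that adds bases at antigen receptor junctions, fell from 142, 134 and 129 FPKM to 4.21, 3.47 and 3.16. CD1E, a lipid-antigen presenting molecule of thymocytes, fell from 186, 174 and 162 to 6.52, 7.58 and 5.66. Groups lay far apart, with log2 fold changes of -4.89 ± 0.09 and -4.53 ± 0.09 (limma adjusted p = 3.15e-11 and 6.03e-11). CD1C fell from 18.3, 20.1 and 17.7 to 1.34, 1.56 and 1.33 FPKM and CD1A from 59.4, 62.3 and 58.4 to 10.6, 9.3998 and 9.21. THEMIS, which tunes T-cell receptor signals during selection, fell from 102, 88.02 and 83.4 to 6.69, 7.55 and 6.91, and MAL, a membrane raft protein of T cells, from 42.2, 55.7 and 51.5 to 5.41, 4.696 and 2.88.

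Hypoxia-inducible and activation genes made up much of the rest of the 15 largest falls. The vasoactive peptide gene ADM fell from 29.1, 26.4 and 23.1 to 0.743, 1.18 and 0.724 FPKM, the glycolytic enzyme ALDOC from 202, 218 and 198 to 21.5, 18.6 and 19.97 and PFKFB4, which makes an activator of phosphofructokinase, from 33.4, 34.3 and 29.1 to 2.58, 2.88 and 2.15. BHLHE40, a transcription factor induced by hypoxia and by T-cell activation, fell from 41.2, 44.8 and 39.98 to 3.92, 4.42 and 3.81. The activation marker CD69 fell from 13.2, 12.3 and 11.6 to 0.801, 0.849 and 0.420 FPKM, and the thyrotropin receptor gene TSHR from 32.8, 28.1 and 27.3 to 3.73, 2.33 and 2.32. ADM, TSHR and MAL varied more between replicates than the others, with standard errors of 0.17 to 0.20. Lack of overlap between the groups was a condition for the 15 largest falls. C10orf107 and C20orf197 completed the 15 together with CD48 and ITGAL, described next.

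Surface molecules changed in both directions. Of 54 tested genes whose symbol begins with CD and a number (a pattern that also takes in CD2AP, CD2BP2 and CD3EAP, which are no surface molecules), 22 rose and 25 fell, but 15 fell and 7 rose by 2-fold or more. Their median was -0.14, against 0.02 over all tested genes, and ranged from -0.21 to 0.00 over the alternatives. Without the 4 X-linked members 22 rose and 23 fell, with a median of -0.07. ITGAL, the alpha chain of the leukocyte integrin LFA-1, fell from 38.8, 39.3 and 38.95 to 4.13, 4.43 and 4.14 FPKM, and its beta chain gene ITGB2 from 43.8, 48.3 and 46.2 to 27.6, 26.4 and 23.7. CD48, an adhesion ligand of lymphocytes, fell from 123, 103 and 92.002 to 13.4, 12.4 and 13.5, and the costimulatory receptor CD28 from 35.8, 35.5 and 34.8 to 8.13, 7.59 and 7.47. Other integrin chains rose, so that 8 of 13 tested chains rose and 3 fell. ITGA6, a laminin receptor chain, went from 13.1, 12.6 and 13.1 to 24.4, 24.8 and 26.1 FPKM and ITGA2, a collagen receptor chain, from 0.295, 0.301 and 0.368 to 2.65, 2.26 and 2.73. After quantile normalization 7 of the 13 rose and 3 fell.

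Of 26 tested semaphorin, plexin, neuropilin and ephrin genes, a family of guidance cues and receptors, 11 rose and 6 fell, 9 and 2 of them by 2-fold or more. The ephrin receptor EPHB2 went from 0.0391, 0.0681 and 0.0753 to 3.25, 3.07 and 3.03 FPKM. The family median was 0.19, but it ranged from -0.27 to 0.27 over the alternatives, so the counts give no direction for the family. Protein tyrosine phosphatases had 13 rises and 7 falls among 26. PTPRG, a receptor-type phosphatase, rose from 0.248, 0.264 and 0.252 to 10.1, 10.9 and 10.7 FPKM, while PTPN3, a cytosolic phosphatase linked to T-cell receptor signals, fell from 12.02, 12.5 and 11.4 to 1.53, 1.67 and 1.47.

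Cytokine and cytokine receptor genes were split as well. Of 18 tested interleukin and receptor genes, 6 rose and 8 fell, and without the X-linked IL2RG and IL9R the counts were 6 and 6. IL7R, the receptor chain for the thymocyte growth factor interleukin 7, fell from 12.1, 11.8 and 11.2 to 0.840, 1.11 and 1.04 FPKM and the cytokine IL32 from 141, 165 and 162 to 50.3, 41.6 and 37.98. In the TNF superfamily 6 of 17 rose and 8 fell. The death ligand TNFSF10 (TRAIL) rose from 3.597, 2.59 and 3.19 to 13.2, 13.1 and 12.8 FPKM and the costimulatory ligand CD70 from 0.290, 0.437 and 0.326 to 3.82, 4.06 and 3.46, whereas the X-linked ligand gene CD40LG fell from 7.17, 6.702 and 8.03 to 0.908, 1.25 and 1.33. CCR7, a lymph node homing receptor, rose from 0.502, 0.566 and 0.931 to 4.06, 3.42 and 3.56.

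Among transcription factors of the T lineage, 14 of 26 rose and 7 fell, and all 7 changes of 2-fold or more were rises. ID1, an inhibitor of E-protein factors, rose from 0.992, 1.18 and 1.18 to 14.5, 16.03 and 13.2 FPKM. HHEX, a homeobox factor of early progenitors, rose from 0.222, 0.102 and 0.205 to 3.895, 4.98 and 5.07, and the stem cell and thymocyte factor MYB from 164, 154 and 156 to 282, 285 and 304. TOX, a regulator of T-cell commitment, fell from 72.04, 71.3 and 67.7 to 34.9, 33.9 and 35.7 FPKM, and the leukaemia factor TAL1 from 52.1, 52.3 and 54.2 to 29.6, 30.5 and 29.9. The inhibitor and progenitor factors thus were higher in all KO1 libraries than in any WT library, and TOX and TAL1 lower.

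Of 15 tested KLF and SP zinc finger factors 9 rose and 3 fell. KLF3, a repressor of the family, rose from 1.501, 1.24 and 1.62 to 7.85, 8.05 and 8.26 FPKM and KLF5 from 0.554, 0.505 and 0.586 to 3.92, 3.11 and 4.35, while the early response factor KLF10 fell from 17.1, 16.9 and 16.1 to 6.17, 6.68 and 6.09. Of the AP-1, EGR and NFAT factors 5 of 16 rose and 6 fell. The immediate early gene EGR1 fell from 5.58, 5.66 and 5.45 to 0.256, 0.270 and 0.238 FPKM, and the AP-1 partner BATF3 rose from 8.83, 10.8 and 9.08 to 27.1, 24.02 and 22.6. The nuclear receptor RORB rose from 1.12, 1.45 and 1.93 to 10.1, 10.4 and 10.8 FPKM, within a family of 24 tested members of which 10 rose and 8 fell. In the NOTCH pathway 12 of 28 rose and 7 fell, with the receptor NOTCH3 falling from 7.01, 8.696 and 8.304 to 2.01, 1.93 and 1.54 FPKM and the ligand JAG1 rising from 2.02, 2.41 and 2.11 to 9.08, 8.36 and 9.54. ZNF zinc finger genes showed no predominant direction, with 112 rises and 106 falls among 358 (94 and 122 after quantile normalization).

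Histone demethylases and deacetylases fell more often than they rose. Of 19 tested histone demethylase genes of the KDM type (one of them the antisense gene KDM4A-AS1), 13 fell and 1 rose, with a median of -0.28. Without the X-linked KDM5C and KDM6A the counts were 11 and 1. KDM4B, which removes methyl groups from histone H3 lysine 9, fell from 19.1, 20.5 and 21.1 to 6.87, 6.85 and 6.45 FPKM. KDM7A fell from 8.07, 7.55 and 7.61 to 2.197, 2.52 and 2.47, and KDM3A, a hypoxia-inducible demethylase, from 57.9, 53.4 and 51.5 to 18.5, 18.1 and 21.01. Of 18 histone deacetylases and sirtuins 12 fell and 4 rose (10 and 4 of 16 without X-linked members). HDAC7, a class IIa deacetylase abundant in thymocytes, fell from 17.4, 21.5 and 19.9 to 4.99, 4.87 and 4.54 FPKM, and HDAC3 from 63.6, 66.4 and 66.3 to 39.9, 37.3 and 37.5, while HDAC2 rose from 47.4, 44.98 and 44.3 to 62.6, 61.6 and 63.9.

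Polycomb genes themselves held changes in both directions. Of 13 tested PRC2 genes 3 rose and 7 fell. PHF19, an accessory subunit that binds methylated lysine 36 of histone H3, fell from 43.6, 46.3 and 41.3 to 18.4, 18.1 and 20.5 FPKM and lies in the chromosome 9 stretch. The subunit PHF1 fell from 15.3, 15.8 and 16.8 to 9.76, 8.83 and 8.03, and the histone-binding RBBP7, on chromosome X, from 163, 152 and 144 to 98.2, 98.3 and 108. Of 23 genes of Polycomb repressive complex 1, which ubiquitinates histone H2A, 10 rose and 7 fell, or 10 and 5 of 21 without X-linked members, shares near those over all tested genes. Its subunit BMI1 rose from 40.9, 36.5 and 40.3 to 79.5, 90.98 and 101 FPKM and the ubiquitin ligase RNF2 from 18.8, 14.9 and 15.99 to 29.1, 29.998 and 29.8. Of 25 subunits of the BAF and PBAF remodelling complexes 14 rose and 7 fell, and none changed by 2-fold.

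Genes of glycolysis and the hypoxia response fell almost as a whole, with 33 falls and 0 rises among 34, 21 of them by 2-fold or more. The median was -1.22, against 0.02 over all tested genes, and ranged from -1.30 to -1.15 over the alternatives. PGK1, the first ATP-producing enzyme of glycolysis, fell from 937, 922 and 859.7 to 286, 286 and 282 FPKM. ENO2, an enolase, fell from 122, 130.3 and 122 to 38.6, 34.2 and 35.5, and GPI, the glucose phosphate isomerase, from 228, 235 and 221 to 95.3, 94.4 and 92.8. The mitophagy receptor BNIP3 fell from 146, 143 and 128 to 19.9, 22.02 and 22.2. PFKM, at -0.17, was the member that did not pass.

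The letters ACGTG are the core of the element bound by hypoxia-inducible factors. They were sought on both strands of the RefSeq promoter windows (GRCh38.p14, 300 bases, from 250 before the gene start), and were present in 13 of 30 matched members (43.3%) and in 21.6% of all 27195 promoters. The 3 called members holding them upstream with the smallest p are shown because they fell together. Each line gives 80 bases from the 250 before the gene start, 5′ to 3′ on the gene's strand, with ACGTG or its complement CACGT in capitals.
PGK1: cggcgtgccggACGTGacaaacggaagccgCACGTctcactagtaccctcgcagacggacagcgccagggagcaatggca
ENO2: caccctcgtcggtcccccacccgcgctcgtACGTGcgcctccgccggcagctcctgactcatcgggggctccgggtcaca
GPI: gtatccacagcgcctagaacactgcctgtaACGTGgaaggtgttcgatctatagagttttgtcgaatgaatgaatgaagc
They lie at chrX:78104035-78104114, chr12:6914432-6914511 and chr19:34364800-34364879, all on the plus strand, and PGK1, which is X-linked, holds 2 matches. ACGTG is contained in the E-box CACGTG used further on. Here and below each motif was chosen for the list it was sought in, and all promoters include those of genes that were not tested. A higher share in a list therefore does not bear on the change in KO1.

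The pathway that makes and takes up cholesterol had 20 falls and 3 rises among 27 genes, with a median of -0.49. FDFT1, which makes squalene, fell from 579, 598 and 559.9 to 328, 332 and 324 FPKM and INSIG1, a sensor that restrains the pathway, from 418, 375 and 364 to 143, 164 and 165. Fatty acid oxidation had 11 falls and 3 rises among 18. ETFB, which carries electrons from the first oxidation step, fell from 75.01, 71.9 and 74.2 to 41.7, 41.9 and 34.8 FPKM. Of 22 vacuolar ATPase subunit genes, which acidify lysosomes, 11 fell and 3 rose (the list was matched by the start of the symbol and takes in an antisense and a read-through gene), with ATP6V1H going from 31.2, 27.4 and 27.96 to 16.3, 16.6 and 17.7. In respiratory complex I, 7 of 38 genes rose and 11 fell, with all changes between -0.63 and 0.40. In complexes III and IV, 1 of 21 rose and 9 fell, with changes between -0.49 and 0.15, and in ATP synthase 4 of 17 rose and 4 fell.

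Amino acid transporters rose more often than they fell. Of 20 amino acid transporters 14 rose and 2 fell, with a median of 0.58 (0.49 after quantile normalization). Besides SLC7A8, the glutamine transporters SLC38A1 and SLC1A5 rose from 45.9, 43.2 and 46.3 to 87.6, 91.8 and 95.99 and from 56.2, 59.2 and 61.6 to 91.2, 92.5 and 86.1 FPKM. Of 17 genes of serine, glycine and one-carbon metabolism 9 rose and 5 fell, with a median of 0.15. The serine synthesis enzyme PHGDH rose from 65.8, 71.7 and 76.8 to 133, 132 and 129, and MAT2A, which makes the methyl donor S-adenosylmethionine, from 80.2, 82.5 and 81.2 to 181, 172 and 194. Of 13 pyrimidine synthesis genes 8 rose and 2 fell, and of 14 purine synthesis genes 8 rose and 4 fell (8 and 1 of 11 without X-linked members). UMPS, the last enzymes of uridine monophosphate synthesis in 1 protein, rose from 6.18, 6.13 and 6.401 to 13.5, 12.2 and 13.2 FPKM.

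Of 24 genes linked to the amino acid response, which the transcription factor ATF4 activates, 11 rose and 4 fell. ASNS, asparagine synthetase, rose from 14.4, 15.4 and 18.1 to 44.9, 47.5 and 47.5 FPKM, while DDIT4, a stress-induced inhibitor of mTORC1 that hypoxia also induces, fell from 118, 127 and 127 to 19.99, 21.2 and 19.3. The letters TGATGNAA of the ATF4 element, sought in the same way, were in 4 of 21 matched promoters (19.0%) against 3.67% of all. The upstream window of ASNS (chr7:97872427-97872506, minus strand) is shown because it rose most within the list, with the match in capitals.
ASNS: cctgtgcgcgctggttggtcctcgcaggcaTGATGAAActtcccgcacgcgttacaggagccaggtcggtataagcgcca

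Ribosome assembly and ribosomal protein genes moved in opposite directions. Of 48 ribosome biogenesis genes 42 rose and 1 fell, with a median of 0.49 that stayed between 0.47 and 0.52 over the alternatives. Nucleolin (NCL), an abundant nucleolar protein, rose from 642, 638 and 638 to 1122, 1106 and 1104 FPKM. MRTO4, an assembly factor of the large subunit, rose from 17.6, 18.4 and 16.6 to 44.1, 39.8 and 39.9, and POLR1B, a catalytic subunit of RNA polymerase I, from 10.98, 10.7 and 11.2 to 27.7, 27.9 and 27.8. Of 84 cytosolic ribosomal protein genes, 64 fell and 2 rose, with a median of -0.26, and 2 of the falls exceeded 1.5-fold in the test against that size. After quantile normalization 35 fell and 9 rose, with a median of -0.10. RPL3 fell from 1279, 1293 and 1252 to 818, 809.7 and 818 FPKM and the X-linked RPS4X from 1744, 1660.2 and 1573 to 996, 909.9 and 972. Ribosomal protein genes have near-identical copies in the genome that may share reads.

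The E-box CACGTG, the preferred element of MYC proteins, was in 15 of 40 matched promoters of ribosome biogenesis genes (37.5%) and in 7.45% of all promoters. UTP20 and CIRH1A (UTP4), assembly factors of the small subunit, rose from 13.2, 11.6 and 12.5 to 25.8, 25.2 and 26.6 and from 37.3, 34.02 and 33.9 to 46.8, 43.1 and 48.5 FPKM, and UTP14A from 19.1, 17.6 and 19.1 to 27.97, 26.1 and 25.8. The upstream windows of these 3 genes, chosen as above and named for their windows after their values were seen, follow with the E-box in capitals.
UTP20: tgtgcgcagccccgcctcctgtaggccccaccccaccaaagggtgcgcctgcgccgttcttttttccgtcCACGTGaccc
CIRH1A: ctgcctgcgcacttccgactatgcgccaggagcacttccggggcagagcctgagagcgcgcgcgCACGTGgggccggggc
UTP14A: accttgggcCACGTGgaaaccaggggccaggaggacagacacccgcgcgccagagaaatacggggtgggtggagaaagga
They lie at chr12:101280025-101280104, chr16:69132569-69132648 and chrX:129905914-129905993, all on the plus strand. The E-box starts 10 bases before the gene start in UTP20, 16 in CIRH1A and 241 in UTP14A.

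Other families of the translation machinery held both rises and falls. Of 77 mitochondrial ribosomal protein genes 35 rose and 12 fell, MRPL1 going from 18.02, 13.4 and 15.2 to 43.7, 46.3 and 48.7 FPKM. Of 36 aminoacyl tRNA synthetases 21 rose and 6 fell, with FARSA, for phenylalanine, rising from 60.4, 72.8 and 71.1 to 138, 132 and 124 and QARS, for glutamine, falling from 82.7, 90.6 and 87.5 to 55.3, 54.5 and 51.8. Of 20 genes of RNA polymerase III and its factors 12 rose and 7 fell. POLR3B, its second largest subunit, rose from 4.26, 4.495 and 4.93 to 13.9, 14.2 and 14.6 FPKM and GTF3A, the factor for 5S ribosomal RNA, from 243, 227 and 223 to 458, 443 and 477, whereas GTF3C5, a subunit of its factor TFIIIC, fell from 35.6, 40.7 and 41.6 to 14.4, 13.3 and 11.8. Initiation and elongation factors were divided, with 26 rises and 23 falls among 63.

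**Figure D5:**
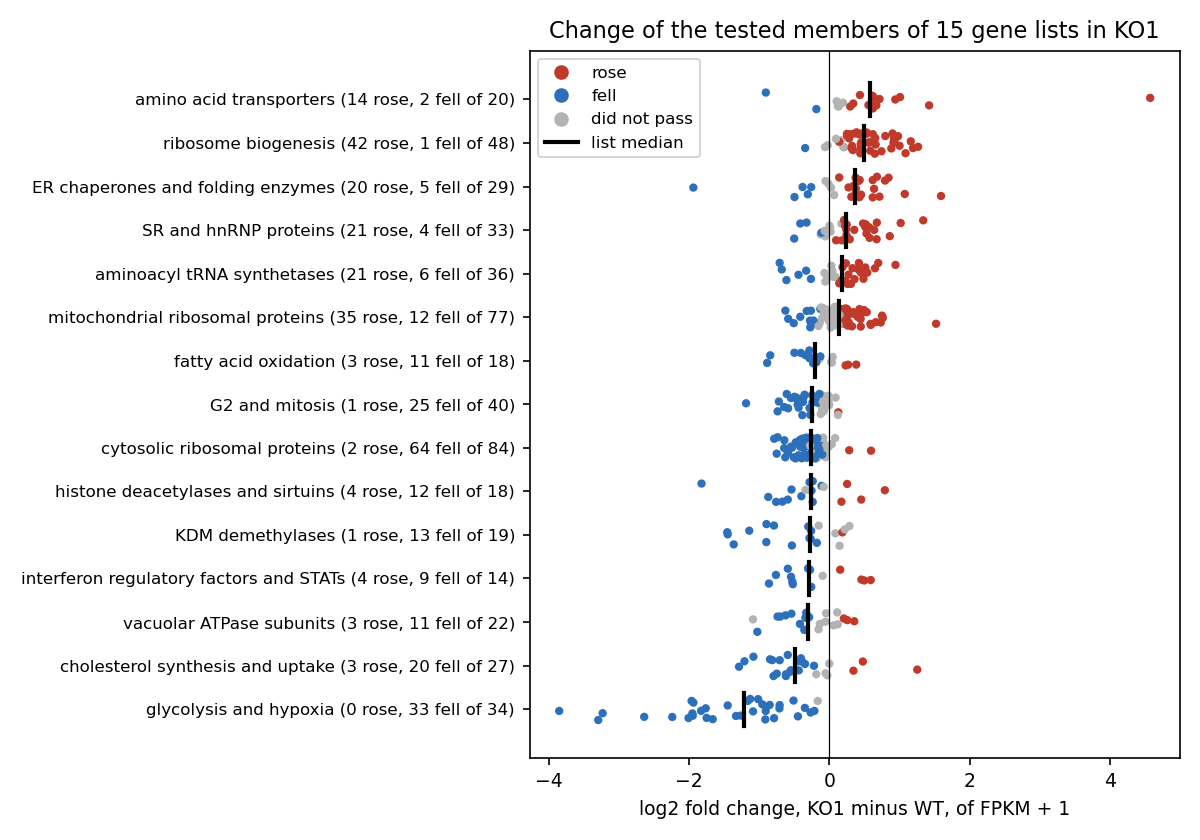
Log2 fold change (KO1 minus WT, of FPKM + 1) of each tested member of 15 gene lists, with members that rose in red, fell in blue and did not pass in grey, and the list median as a black bar. Glycolysis and hypoxia genes lie lowest (median -1.22), and amino acid transporters and ribosome biogenesis genes highest (0.58 and 0.49).

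Protein folding in the endoplasmic reticulum had 20 rises and 5 falls among 29 genes, with a median of 0.37. CALR, a calcium-binding chaperone of glycoproteins, rose from 341, 348 and 354 to 1078, 1033 and 1040.05 FPKM (log2 fold change 1.59 ± 0.03, limma adjusted p = 6.36e-11). HSPA5 (BiP), the main chaperone of the compartment, rose from 56.4, 53.4 and 52.003 to 90.03, 86.4 and 90.7 and the prolyl isomerase PPIB from 145, 137 and 141 to 258, 246 and 258. XBP1, a transcription factor of the unfolded protein response, rose from 58.5, 57.6 and 54.7 to 76.2, 75.6 and 70.4. EDEM1, which sends misfolded glycoproteins to degradation, moved against the family, from 119, 112 and 125 to 29.5, 30.98 and 29.9 FPKM. All KO1 libraries lay below all WT libraries for EDEM1.

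The endoplasmic reticulum stress element (CCAAT and CCACG with 9 bases of any kind between them, both strands) was in 6 of 28 matched promoters of this family (21.4%) and in 22 of all 27195 promoters (0.0809%). As with ACGTG, the element was chosen for this list, so the contrast of shares does not bear on KO1. The windows of 3 genes that rose and hold it are printed with the element in capitals, XBP1 having been named for its window after its value was seen. In CALR it reads on the opposite strand.
CALR: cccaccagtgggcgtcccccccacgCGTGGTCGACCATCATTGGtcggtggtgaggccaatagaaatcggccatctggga
HSPA5: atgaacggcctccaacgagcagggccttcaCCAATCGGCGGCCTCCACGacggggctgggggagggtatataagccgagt
XBP1: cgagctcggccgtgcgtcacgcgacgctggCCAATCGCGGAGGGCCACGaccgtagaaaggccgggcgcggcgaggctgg
They lie at chr19:12938359-12938438 on the plus strand and at chr9:125241360-125241439 and chr22:28800572-28800651 on the minus strand. The element starts 225, 66 and 52 bases before the gene start.

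RNA-binding proteins rose more often than they fell. Of 33 SR and hnRNP genes, which guide splicing, 21 rose and 4 fell, with a median of 0.24. HNRNPLL, a splicing regulator induced in activated T cells, rose from 17.9, 17.6 and 15.6 to 42.8, 46.1 and 44.7 FPKM, SRSF6 from 56.97, 57.6 and 56.2 to 113.8, 113 and 121 and HNRNPM from 119, 125 and 123 to 225, 224 and 218. Of 53 DEAD and DEAH box helicase genes 28 rose and 12 fell, whereas 45 core spliceosome genes were divided into 15 rises and 10 falls. Long non-coding RNAs fell more often. Of 76 LINC genes 33 fell and 13 rose (28 and 13 of 71 without X-linked genes), and of 207 antisense genes 77 fell and 34 rose. LINC00977 fell from 20.2, 20.4 and 19.8 to 2.8999, 2.92 and 3.08 FPKM, while DPP10-AS1 rose from 1.296, 2.02 and 1.44 to 15.6, 13.1 and 13.2. Whether the counting used strand is not given in the sources used here, so antisense genes may share reads with their partners.

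Genes of G2 and mitosis were lower in KO1, with 25 falls and 1 rise among 40 and a median of -0.25. CDC25C, the phosphatase that activates CDK1, fell from 25.8, 23.1 and 22.6 to 9.58, 9.75 and 10.3 FPKM. The mitotic kinase AURKA fell from 77.04, 72.3 and 67.5 to 41.8, 42.6 and 44.2, PRC1, which bundles microtubules of the spindle midzone, from 72.1, 73.4 and 73.5 to 46.7, 45.7 and 46.3, and the checkpoint kinase BUB1B from 80.6, 75.1 and 75.5 to 55.6, 54.4 and 59.7. These falls were below 2-fold except for CDC25C, and 2 of the 25 exceeded 1.5-fold in the test against that size.

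The letters TTTGAA, the core of the cell cycle homology element bound by repressor complexes outside G2, were in 23 of 33 matched promoters of these genes (69.7%) and in 15.4% of all promoters. The upstream windows of PRC1, INCENP and BUB1B are shown with the match in capitals, the last 2 named for their windows after their values were seen. INCENP, a subunit of the chromosomal passenger complex, fell from 43.4, 47.4 and 48.2 to 31.4, 30.9 and 28.95 FPKM.
PRC1: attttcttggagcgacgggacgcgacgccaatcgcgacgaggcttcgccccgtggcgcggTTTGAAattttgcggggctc
INCENP: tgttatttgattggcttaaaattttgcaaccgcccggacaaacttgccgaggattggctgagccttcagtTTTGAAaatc
BUB1B: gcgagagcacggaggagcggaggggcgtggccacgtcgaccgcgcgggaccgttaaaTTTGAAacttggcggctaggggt
They lie at chr15:90994536-90994615 on the minus strand and at chr11:62123931-62124010 and chr15:40160989-40161068 on the plus strand, and the match starts 20, 10 and 23 bases before the gene start. A match in a window is a description of its letters and shows no binding.

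D-type cyclins changed in both directions. CCND3, the D cyclin with the highest FPKM in both groups, fell from 70.2, 77.7 and 73.7 to 44.1, 44.2 and 42.8 FPKM, CCND2 rose as given above, and CCND1 went from 0, 0 and 0.0198 to 2.01, 2.09 and 2.51. The kinase inhibitor gene CDKN2D fell from 22.1, 21.5 and 22.2 to 10.5, 11.5 and 10.9 FPKM. Of 10 E2F and DP factors 6 rose and 1 fell. In the BCL2 family 4 of 14 rose and 1 fell, and the survival gene BCL2 rose from 7.06, 6.24 and 7.19 to 16.3, 15.9 and 15.99. Of 22 genes activated by p53, a protein that is not functional in Jurkat cells, 8 rose and 7 fell. TP53INP1 fell from 8.23, 7.97 and 7.48 to 1.65, 1.82 and 2.32 FPKM and AEN rose from 6.55, 8.71 and 9.31 to 19.3, 19.2 and 18.4.

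The other edited line served to find where KO1 differed from it. In a direct test of KO1 against KO2, 3596 of 11737 genes passed (30.6%), of which 1450 were higher (12.4%) and 2146 lower (18.3%) in KO1. The split depended on scaling: 40.3% of these genes were higher in KO1, against 51.0% after quantile normalization and 52.1% after centring each library on its median. By 2-fold or more, 104 were higher and 42 lower. Comparisons of both edited lines with WT share the WT libraries, so their values are set side by side only.

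Among genes that passed against both WT and KO2 in the same direction, the largest excess in KO1 was that of the cancer-testis gene MAGEA4, on chromosome X. It stood at 6.92, 6.75 and 6.91 FPKM in WT, 20.4, 23.4 and 21.8 in KO1 and 0, 0.0502 and 0.0542 in KO2. The related gene MAGEA1 stood at 1.0097, 1.06 and 1.37, 15.6, 16.9 and 15.1 and 0, 0 and 0.0544. Near-identical MAGEA genes may share reads. CD2 stood at 35.8, 35.01 and 36.6 in WT, 87.2, 90.1 and 94.4 in KO1 and 3.54, 4.496 and 5.11 in KO2, so that the KO1 libraries lay highest and those of KO2 lowest. The differences between KO1 and KO2 were 4.46 ± 0.07, 4.05 ± 0.09 and 4.10 ± 0.09 on the log2 scale (limma adjusted p = 6.11e-11, 8.77e-10 and 8.77e-10).

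PAPPA, a secreted metalloprotease, stood at 0.994, 1.19 and 1.33 FPKM in WT, 10.4, 10.1 and 9.95 in KO1 and 0.0784, 0.108 and 0.155 in KO2, and GPA33, a surface antigen, at 5.73, 6.34 and 6.11, 17.5, 18.3 and 17.5 and 2.03, 1.801 and 2.07. CHRDL1 stood at 0.0917, 0.0619 and 0.0680 in KO2, far below its KO1 level. In the other direction CD40LG, the ligand by which T cells help B cells, stood at 7.17, 6.702 and 8.03 FPKM in WT, 0.908, 1.25 and 1.33 in KO1 and 17.04, 17.1 and 16.1 in KO2. The secreted glycoprotein LGALS3BP stood at 19.5, 22.5 and 22.5, 3.73, 3.79 and 2.98 and 16.9, 16.2 and 16.1, so that KO2 lay close to WT and KO1 below both. The differences were -3.04 ± 0.09 and -1.96 ± 0.08 (limma adjusted p = 6.89e-09 and 1.1e-07).

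Several leading genes of the comparison with WT also differed between the edited lines. APP stood at 19.1, 19.7 and 19.1 FPKM in KO2, below its KO1 level (difference 1.90 ± 0.07, limma adjusted p = 2.14e-08). ANXA5 stood at 49.3, 52.9 and 52.1 and ANXA1, an annexin that fell in KO1 from 141, 130.4 and 128 to 19.3, 21.3 and 19.8, at 72.6, 69.3 and 67.5. For TNIK the KO2 libraries, at 26.6, 28.6 and 28.2, did not differ from those of KO1 beyond their spread (difference 0.08 ± 0.13, limma adjusted p = 0.652). CALR, at 979, 995 and 1011 in KO2, also missed the threshold (difference 0.08 ± 0.03, limma adjusted p = 0.0884).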

How the data were processed

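Polyadenylated RNA of 9 Jurkat libraries (3 each of WT, KO1 and KO2) was sequenced. The authors deposited 1 table of values per gene and library, read here as FPKM deposited without a unit in the header, from the values and from Cufflinks being named. Reads were processed with STAR 2.5.0b, Cufflinks 2.2.1 and bedtools 2.7.0 on hg19, per the submitters' processing notes. Neither strandedness nor read depth is stated in the labels or the table, and FPKM without counts gives no counting error.

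Of 26228 rows, 38 hold text in place of a number (among them TAP1, TAP2 and PSMB8) and were left out. Genes at 1 FPKM or more in at least 3 libraries (11737) were analysed as log2(FPKM + 1) with limma 3.58.1 in R 4.3.3. The fit had a mean for each group, all 9 libraries and a mean-variance trend, and p-values were adjusted by Benjamini and Hochberg over all tested genes. No gene was imputed. The fit was tested on simulated data for KO1 against WT with 200 of 11737 genes changed. It recovered 38% of changes of 0.25, 92% of 0.5 and 100% of 1 and 2 on the log2 scale, with 10 false calls. In the real comparison 7923 genes were called, far more than were changed in the simulation. The adjusted p threshold depends on that share, so these figures do not give recovery or false calls for the real data.

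The compared groups and the gene lists were chosen with earlier results of these data known. Named genes are EZH2 and EZH1, the 15 largest called changes without overlap in each direction, and the 6 largest at a mean of 50 FPKM or more. The rule adds the 6 largest differences from KO2 in each direction among genes that also passed against WT with the same sign, and up to 4 called genes of smallest p per list. Lists matched by symbol pattern also took in KDM4A-AS1, FOXD2-AS1, CD3EAP and ATP6V1G2-DDX39B. Promoter sequences (300 bases) come from RefSeq, GRCh38.p14, and were matched by symbol. The windows shown are those of called members with the smallest p that hold the motif before the gene start, with genes on chromosome 8 left out. For the amino acid response list only the window of ASNS is shown, and ATF3 also held a match. Each cholesterol, glycolysis, ribosome biogenesis, endoplasmic reticulum, amino acid response and mitosis list was searched for 1 motif. The cholesterol motif TCACNCCAC was in 1 of 21 promoters (4.76%) against 1.15% of all.

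Alternatives were other filters, pseudocounts, scalings, moderation, thresholds, a fit of the compared groups alone, a replicate block and leaving out each library. Counts without X-linked genes were added after seeing the data. Same-numbered WT and KO1 libraries gave correlations of their deviations of -0.287, -0.0767 and -0.206, so the numbers were not taken to pair the samples.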

Additional observations from a re-analysis of the deposited data

Results flagged for a closer look

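The 13 genes below, of the 337 named, had all KO1 libraries on one side of WT and all KO2 libraries on the other. They are not all such genes, since ATP5J2 and ADAM10 showed this order too. Both missed the threshold for KO2 against WT (limma adjusted p = 0.0742 and 0.0899). The differences between KO1 and KO2, on the log2(FPKM + 1) scale, passed limma's direct test for each of the 13. For genes named by their difference from KO2, passing that test was a condition of the choice. The order of libraries required here also makes a pass likely, so the passes are no separate support. Those higher in KO1 were MAGEA4 (4.46), CD2 (4.10), MAGEA1 (4.05), PAPPA (3.33), GPA33 (2.66), CD79A (1.34), MRPL16 (1.14) and ATIC (0.51). Those lower in KO1 were CD40LG (-3.04), ALDH1B1 (-2.63), SHISA2 (-2.01), RHOU (-1.87) and TCEAL4 (-1.87).

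CD79A stood at 24.5, 28.98 and 28.99 FPKM in WT, 57.99, 58.2 and 48.5 in KO1 and 22.1, 21.8 and 19.1 in KO2. The mitochondrial ribosomal protein gene MRPL16 stood at 108, 120.000 and 115, 184, 181 and 179 and 81.9, 78.6 and 85.5, and ATIC, the last enzyme of purine synthesis, at 132, 129 and 128, 172, 164 and 169 and 118, 119 and 118. SHISA2 stood at 26.6, 25.9 and 24.9 in WT, 11.6, 13.2 and 12.04 in KO1 and 56.1, 50.5 and 50.8 in KO2, and the X-linked TCEAL4 at 5.97, 5.46 and 5.104, 3.14, 2.69 and 1.47 and 11.2, 11.2 and 11.5. ALDH1B1, a mitochondrial aldehyde dehydrogenase, was under 0.3 FPKM in all WT and KO1 libraries and at 5.66, 5.39 and 5.46 in KO2. Its lower level in KO1 than in WT (log2 fold change -0.21, limma adjusted p = 0.0352) lost the call under 13 of the 21 alternatives, among them the replicate block (adjusted p = 0.0561) and 8 of the 9 fits that each leave out 1 library (adjusted p = 0.0504 to 0.104). MAGEA4, MAGEA1 and CD40LG are also X-linked.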

How the results depend on the processing

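Among genes that differed between KO1 and WT, 652 were higher and 334 lower by 2-fold. With a filter of 5 FPKM these counts became 346 higher and 251 lower. A pseudocount of 0.1 gave 933 higher and 542 lower. A test against a minimum change of 1.5-fold left 1405 genes, 876 higher and 529 lower. Between KO1 and KO2 the 2-fold counts of 104 higher and 42 lower became 45 and 32 with the 5 FPKM filter. They became 186 and 94 with a pseudocount of 0.1. The 1.5-fold test left 142 of 3596, 105 higher and 37 lower, and an adjusted p threshold of 0.01 left 2100, 932 higher and 1168 lower. Fewer genes are tested under the stricter filter, and the cause of the other shifts was not tested.

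Leaving out 1 library at a time gave 7339 to 7935 genes for KO1 against WT (3879 to 4153 higher, 3460 to 3782 lower) and 2643 to 4081 for KO1 against KO2 (1112 to 1600 higher, 1531 to 2481 lower). Without X-linked genes, 7610 genes passed against WT (4125 higher, 3485 lower). With the replicate number as a block, 7694 genes passed against WT and 3135 between KO1 and KO2. The replicate numbers were not taken to pair the samples, since not every library correlated best with its own number. Deviations within such small groups cannot show whether the libraries were paired. Of 337 named genes, 136 lost the call under at least 1 of 21 alternatives, all 136 of them under the 1.5-fold test, and 0 reversed. Under the 5 FPKM filter 295 of the named genes kept the call and 1 lost it, and the rest were not tested there. Low values limit the analysis: FPKM carries no depth, and changes of genes near 1 FPKM shrink with the pseudocount.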

Other observations

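Interferon-related genes tended to the lower side, with 17 falls and 8 rises among 32 interferon-stimulated genes and 9 falls and 4 rises among 14 interferon regulatory factors and STATs. OAS1, a sensor of double-stranded RNA, fell from 2.09, 2.08 and 2.11 to 0.568, 0.573 and 0.624 FPKM and IRF1 from 15.6, 15.4 and 17.3 to 11.2, 10.5 and 10.8. The antiviral membrane proteins IFITM1 and IFITM2 rose, from 53.5, 61.9 and 56.9 to 95.7, 95.1 and 112 and from 32.9, 38.9 and 32.9 to 90.4, 79.9 and 69.2 FPKM. Near-identical IFITM genes may share reads. The class I molecule HLA-E fell from 27.5, 29.5 and 31.2 to 12.01, 10.5 and 9.74, opposite to HLA-B, in a list of 15 with 7 rises and 5 falls.

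Cytoskeletal and signalling families held single large changes in both directions. The kinesin KIF21A rose from 0.384, 0.243 and 0.296 to 9.12, 8.26 and 9.93 FPKM, while 6 of 30 kinesins rose and 9 fell. Of 11 tested SOCS and Sprouty inhibitors of signalling, 7 rose and 3 fell (5 and 3 after quantile normalization). Their median was 0.46 and ranged from 0.00 to 0.62 over the alternatives. Among these inhibitors SPRY2 rose from 1.96, 1.85 and 1.26 to 4.37, 5.12 and 4.95 and SPRED2 fell from 23.1, 22.7 and 24.2 to 8.53, 9.42 and 9.03. FOXO1, a forkhead factor that restrains growth, rose from 0.941, 0.702 and 0.808 to 4.33, 4.4003 and 4.33 FPKM, and the ETS factor ETV5 fell from 5.802, 4.37 and 4.68 to 0.521, 0.510 and 0.637. Of 41 proteasome genes 15 rose and 8 fell, and of 26 nucleoporins 7 rose and 11 fell, none by 2-fold.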
